A study of Homo sapiens with 12 samples.

Results

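SOX genes encode transcription factors that bind DNA through a shared domain, the HMG box, and 5 of them (SOX4, SOX9, SOX11, SOX12 and SOX13) are described here across siRNA knockdowns of CENPF and FOXM1. They were chosen by symbol in the authors' differential expression tables and read by gene identifier in all 12 libraries, and they make up 5 of the 14862 genes of the normalized count table. SOX11 headed the set because its level was already known to be low after CENPF knockdown in these libraries, so its values against the control siRNA are a description and no p-value is given for them. SOX4, SOX9, SOX12 and SOX13 are the family members named beside it.

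The cells were labelled parental hTERT-RPE1 in all groups. This is a human retinal pigment epithelial line immortalized with telomerase, so all groups share that immortalized background. siRNA was given at 20 nM in 4 groups: a negative control (siNeg), CENPF as the target (siCENPF), FOXM1 as the target (siFOXM1), and both targets at once (siCENPF+siFOXM1). Polyadenylated RNA was sequenced from cells collected 48 hours later. There were 3 libraries per group, and the labels number them 1 to 3. CENPF is a large protein of the mitotic kinetochore and nuclear envelope, and FOXM1 is a forkhead transcription factor that drives genes of late cell cycle phases. No siRNA sequence is stated in the sources at hand, nor how the 20 nM was made up where both targets were hit, and no label says that replicate libraries came from separate cultures, so p-values measure the spread between these libraries, which may be technical.

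The 5 members belong to 3 SOX subfamilies. SOX4, SOX11 and SOX12 form the SoxC group, activators with a strong transactivation domain at the end of the protein, best known from neural and mesenchymal progenitors in the embryo. SOX9, of the SoxE group, directs cartilage formation and is also present in retinal pigment epithelium, while SOX13, of the SoxD group, has no transactivation domain of its own and acts with partner proteins. SOX proteins bind the minor groove, bend the DNA and usually act beside a partner such as a POU factor.

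The genes are close relatives at the sequence level, which matters for counting because reads from a stretch that 2 genes share could be placed on either. Below is the stretch of 30 coding bases at which all 5 genes are most alike, within the HMG box, on the plus strand of GRCh38 and read from GENCODE v29 transcripts. Capitals mark the 25 bases that are equal in all 5 genes.
SOX11: CACaTCAAGcGgCCgATGAACGCgTTCATG
SOX4: CACaTCAAGcGaCCcATGAACGCcTTCATG
SOX12: CACaTCAAGaGgCCgATGAACGCaTTCATG
SOX9: CACgTCAAGcGgCCcATGAACGCcTTCATG
SOX13: CACaTCAAGaGgCCcATGAACGCcTTCATG

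These bases lie at chr2:5692863-5692892 in the single exon of SOX11, at chr6:21594706-21594735 in the single exon of SOX4 and at chr20:326039-326068 in the single exon of SOX12. The SOX9 stretch is at chr17:72121701-72121730 in exon 1 of 3, and the SOX13 stretch at chr1:204123696-204123725 in exon 12 of 14. Over the 79 codons with the best ungapped match, which hold the box, SOX11 shared 86.9% of its bases with SOX4, 84.8% with SOX12, 73.4% with SOX9 and 65.4% with SOX13. The longest identical run between SOX11 and another member was 35 bases, with SOX12, and it was 27 bases with SOX4. For the other 8 pairs of members the longest run was 13 to 33 bases. Read length is not stated in the sources at hand.

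The members as the authors' tables give them on hg38, all on the plus strand, are SOX11 (ENSG00000176887, chr2:5692667-5701385), SOX4 (ENSG00000124766, chr6:21592769-21598619), SOX12 (ENSG00000177732, chr20:325401-330224), SOX9 (ENSG00000125398, chr17:72121020-72126420) and SOX13 (ENSG00000143842, chr1:204073115-204127743). In the GENCODE v29 annotation, SOX11 exons share 74 bases with AC108025.2 on the same strand, a transcript that reached no more than 0.118 FPKM, and SOX4 exons share 168 bases with AL512380.2 on the opposite strand. Whether reads were counted by strand is not stated in the sources at hand.

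The library totals ran from 13671250 to 35411230 reads in genes. CENPF stood at 10.8% of its siNeg mean in siCENPF and 15.8% in siCENPF+siFOXM1, and FOXM1 at 15.2% in siFOXM1 and 17.7% in siCENPF+siFOXM1. Of 10 markers of differentiated retinal pigment epithelium, 2 reached 1 FPKM (BEST1 and MITF), while RPE65 and TYR were listed at 0 in all 12 libraries. The epithelial and mesenchymal filament genes KRT8, KRT18 and VIM were present and the epithelial adhesion genes CDH1 and EPCAM reached at most 0.00231 and 0.0182 FPKM. No melanocyte, chondrocyte or blood and endothelial marker on the lists reached 1 FPKM, and of 5 keratinocyte markers KRT10 and KRT14 did, with KRT5 and KRT1 at 0.

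The order of expression was read from FPKM, which corrects for gene length. In siNeg, SOX9 was the most abundant member at 21.7 ± 3.16 FPKM (SD, n = 3), followed by SOX12 at 16.2 ± 2.55, SOX4 at 3.83 ± 1.47, SOX11 at 3.41 ± 0.298 and SOX13 at 0.326 ± 0.0177. SOX9 and SOX12 overlapped across libraries, the lowest SOX9 library (18.1 FPKM) lying below the highest SOX12 library (19.1 FPKM). Within each siNeg library, however, SOX9 was the higher one (22.8 against 15.3, 24.1 against 19.1 and 18.1 against 14.3 FPKM in libraries 1 to 3). SOX4 and SOX11 overlapped too, and without siNeg library 2 the SOX4 level was 2.98 FPKM and SOX11, at 3.41 FPKM, stood above it. SOX12 and SOX4, and SOX11 and SOX13, had no values in common.

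The other family members were at or below 0.229 FPKM in every library, apart from SOX15, a SoxG gene known from muscle progenitors, which ran from 0.944 to 1.53 FPKM over the 12 libraries. SOX15 had 81.5 to 105 normalized counts in siNeg and 63.5 to 74.9 in siFOXM1, which do not overlap, and was not called in any comparison. Of all genes, 6.83% had every siFOXM1 library below every siNeg library. Of 19 SOX genes looked up, 8 were in the normalized count table, the remaining ones of these 8 being SOX5 and SOX6, SoxD partners of SOX9 in cartilage, at no more than 0.102 and 0.0577 FPKM. SOX2, the neural and pluripotency factor, was at 0 to 0.229 FPKM, its highest library lying above the lowest of SOX13 (0.216 FPKM), and SOX7, SOX8, SOX10 and SOX18 reached at most 0.0909 FPKM. SOX1, SOX3, SOX14, SOX17, SOX21 and SOX30 were listed at 0 in all 12 libraries.

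**Figure D1:**
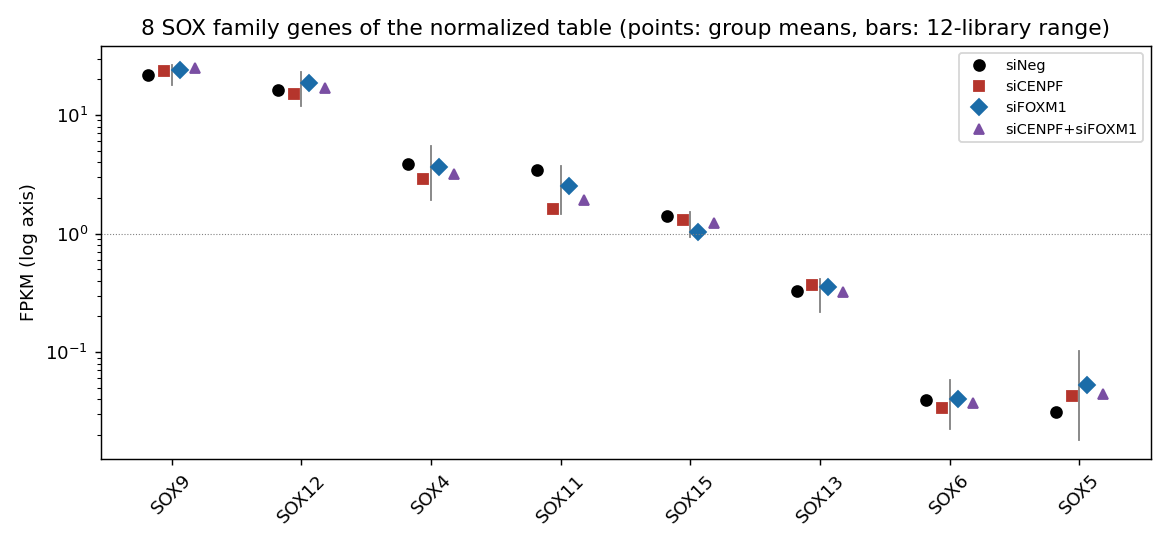
FPKM of the 8 SOX genes of the normalized count table on a log axis, ordered by their siNeg mean. Points are means of 3 libraries per group and grey bars span the lowest to the highest of the 12 libraries, with SOX9 and SOX12 above 10 FPKM and SOX11 spread over its bar by group, from the siNeg mean of 3.41 down to the siCENPF mean of 1.62.

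SOX11, a SoxC factor of embryonic neural progenitors, was highest in the control libraries and lowest with CENPF siRNA. Libraries 1 to 3 of siNeg held 527, 552 and 617 normalized counts. The siCENPF libraries held 255, 264 and 299.6, the siFOXM1 libraries 371, 434 and 436, and the siCENPF+siFOXM1 libraries 343, 259.7 and 353. Every siNeg library lay above all 9 knockdown libraries, siFOXM1 lay between siNeg and both groups with CENPF siRNA without touching either, and the siCENPF and siCENPF+siFOXM1 libraries overlapped. Of all genes, 4.44% had every siCENPF library below every siNeg library, 6.83% every siFOXM1 library and 6.58% every siCENPF+siFOXM1 library. The recovered read numbers behind these values ran from 177 to 1144. In bulk RNA, fewer cells that express a gene and less RNA per cell cannot be told apart.

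As group means the SOX11 levels were 565 ± 46.3 normalized counts (SD, n = 3) in siNeg, 414 ± 36.7 in siFOXM1, 319 ± 51.2 in siCENPF+siFOXM1 and 273 ± 23.5 in siCENPF. These are 73.2%, 56.3% and 48.3% of the siNeg mean for siFOXM1, siCENPF+siFOXM1 and siCENPF.

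**Figure D2:**
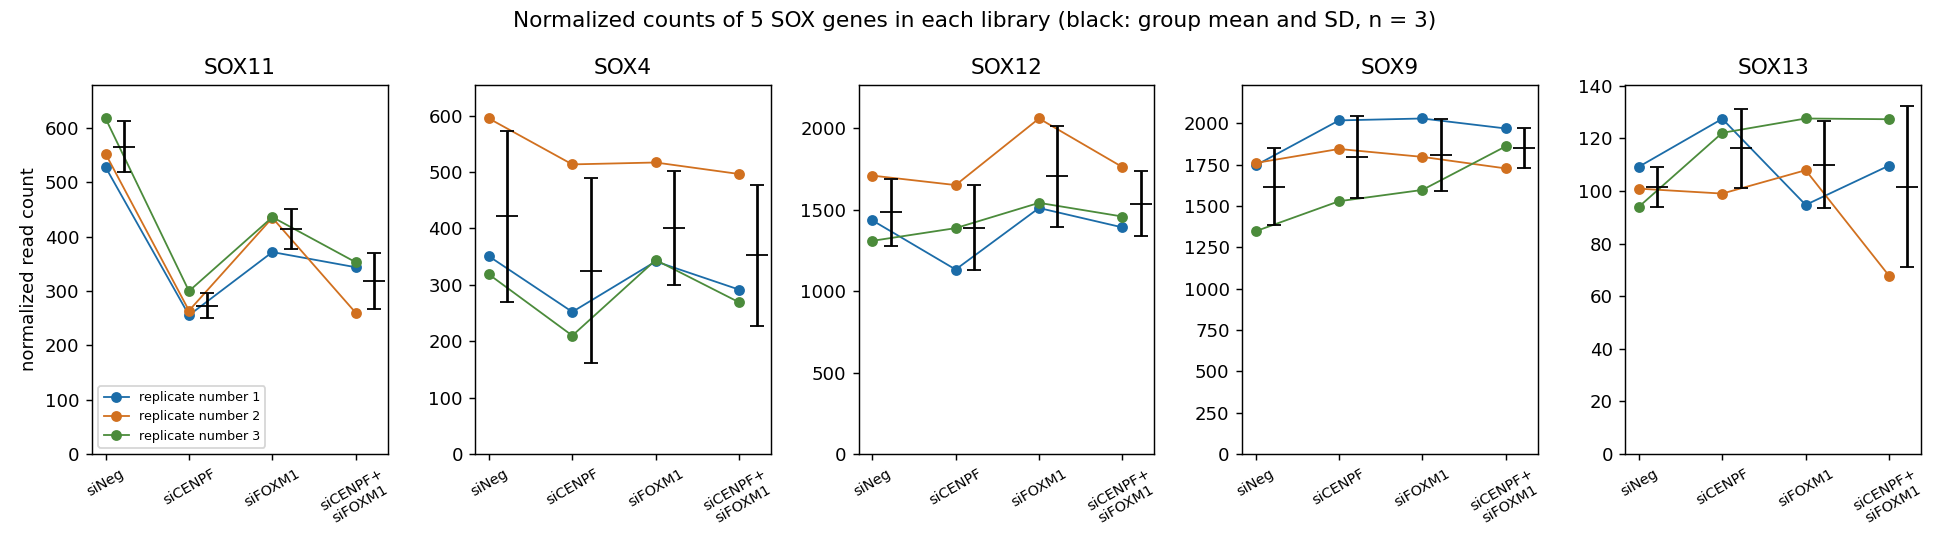
Normalized read counts of the 5 SOX genes in every library, by siRNA group; coloured lines join libraries with the same replicate number, and black bars give the group mean and SD of 3 libraries. The 3 SOX11 lines drop from 527 to 617 in siNeg to 255 to 299.6 in siCENPF, while the SOX4 and SOX12 lines of replicate number 2 run above those of numbers 1 and 3 in every group.

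SOX4, the SoxC member most often studied in epithelial-mesenchymal transition and cancer, followed the replicate number more than the siRNA. In the order of library numbers, its normalized counts were 351, 595 and 319 for siNeg, 252, 513 and 210.0 for siCENPF, 341, 517 and 344 for siFOXM1, and 292, 496 and 269 for siCENPF+siFOXM1. Library 2 was the highest of its group in all 4 groups, and all groups overlapped. Over the groups, libraries numbered 2 averaged 530.4 normalized counts of SOX4, against 309 and 285 for numbers 1 and 3.

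SOX12, the third SoxC gene and a weaker activator than its relatives, had the same split by number. Its values were 1435, 1709 and 1309 normalized counts for siNeg, 1133, 1651 and 1387 for siCENPF, 1510.4, 2059.8 and 1542 for siFOXM1, and 1391, 1762 and 1458 for siCENPF+siFOXM1. Libraries numbered 2 were again the highest in each group and the groups overlapped.

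SOX9, the factor of cartilage and pigment epithelium, was at 1745, 1760.0 and 1347 normalized counts for siNeg, 2018, 1845 and 1529 for siCENPF, 2029, 1797 and 1597 for siFOXM1, and 1969, 1727 and 1861 for siCENPF+siFOXM1. Library 3 was the lowest of its group in siNeg, siCENPF and siFOXM1, but not in siCENPF+siFOXM1. SOX13, the SoxD gene, was at 109, 101 and 94.0 for siNeg, 127, 99.0 and 122 for siCENPF, 94.7, 108 and 128 for siFOXM1, and 109.6, 67.8 and 127 for siCENPF+siFOXM1. Its lowest library, siCENPF+siFOXM1 library 2, held few reads of the gene, as SOX13 had 56 to 199 reads per library in all, and no 2 groups were separate.

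The sum of squares of log2(normalized count + 1) over the 12 libraries was divided between siRNA group, replicate number and the rest. For SOX11, the siRNA group took 90.1%, replicate number 4.51% and the rest 5.38%. For SOX4 the order was turned round, with 14.6% by group and 80.2% by number, and for SOX12 the shares were 24.7% and 65.6%. SOX9 had 21.96% by group and 55.4% by number, and SOX13 had 13.7% and 32.8%, with 53.6% left over. The group share of SOX11 was chosen with the gene and is a description.

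**Figure D3:**
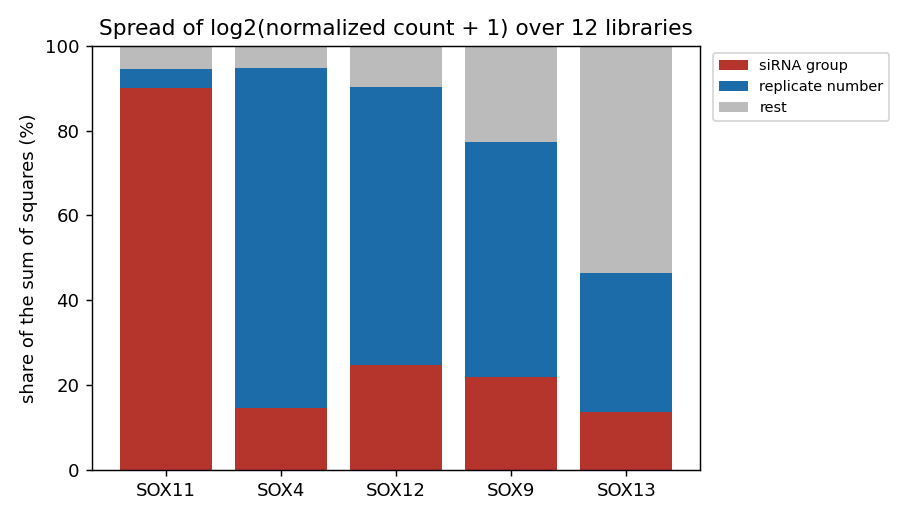
Share of the spread of each SOX gene over the 12 libraries (percent of the sum of squares of log2(normalized count + 1)) that goes with siRNA group, with replicate number and with neither. SOX11 is the member with most of its spread by group (90.1%), and SOX4 the member with most by replicate number (80.2%).

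Fold changes were fitted with limma on log2(normalized count + 1) over 14857 genes, and a gene is called where its Benjamini-Hochberg adjusted p over all of them is under 0.05. Since libraries with the same number deviated from their group means together, a second limma fit with the replicate number as a block is given wherever it changes a call. The 3 comparisons against siNeg share the siNeg libraries, so their fold changes are given side by side.

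SOX11 was lower in all 3 knockdown groups than in siNeg. Against siNeg its log2 fold change was -1.05 ± 0.133 (SE) in siCENPF, -0.45 ± 0.133 in siFOXM1 and -0.84 ± 0.133 in siCENPF+siFOXM1. These values are a description, since the gene was chosen on them. Without the block 1, 0 and 1 of the 5 members passed the threshold in siCENPF, siFOXM1 and siCENPF+siFOXM1, where 0.337%, 0.66% and 0.458% of all genes were called. With the block 2, 1 and 1 of the 5 did, where the shares of all genes were 4.52%, 8.72% and 7.9%. Nothing is read from these member counts, because the members were chosen with these comparisons known. Ranked from the most negative fold change of the 14857 genes, SOX11 stood at 23 in siCENPF, 74 in siCENPF+siFOXM1 and 510 in siFOXM1. The authors' deposited tables list log2 fold changes of -1.06, -0.45 and -0.83 for SOX11 in siCENPF, siFOXM1 and siCENPF+siFOXM1.

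Markers of neural cells, in which SOX11 is best known, summed to 3.25 to 3.48 FPKM in siNeg, 2.79 to 3.57 in siCENPF, 2.35 to 2.98 in siFOXM1 and 2.56 to 2.89 in siCENPF+siFOXM1, with 1 of 8 (NES) reaching 1 FPKM and SOX1, SOX3 and ELAVL4 at 0. NES, an intermediate filament gene of neural progenitors, had a log2 fold change of -0.39 in siFOXM1 against siNeg (limma adjusted p = 0.0457 with the block, not called without it). The part of these markers in the SOX11 level was not tested.

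Within replicate numbers the SOX11 difference was even for siCENPF. The log2 difference from siNeg was -1.04, -1.06 and -1.04 in numbers 1, 2 and 3. With siFOXM1 it was -0.50, -0.34 and -0.50. With both siRNAs it was -0.62, -1.09 and -0.81, so number 2 lay lowest there and number 1 highest. In each of these 9 pairs the knockdown library was the lower one.

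**Figure D4:**
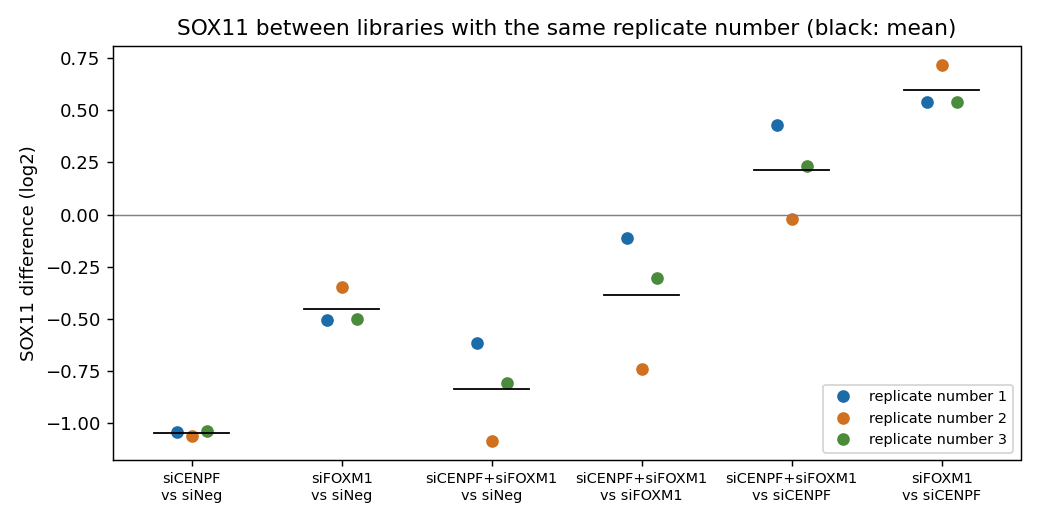
SOX11 difference on the log2(normalized count + 1) scale between libraries that carry the same replicate number, for 6 comparisons of groups; points are the 3 numbers and black lines their mean. The siCENPF points lie between -1.06 and -1.04, and the points with both siRNAs spread from -1.09 to -0.62.

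The remaining members differed less from siNeg. SOX4 had log2 fold changes of -0.43 ± 0.368 (SE), -0.04 ± 0.368 and -0.26 ± 0.368 in siCENPF, siFOXM1 and siCENPF+siFOXM1. With the block the SE of SOX4 was 0.105, and its within-number differences for siCENPF were -0.47, -0.21 and -0.60. In the fit without the block the siCENPF value of SOX4 was -0.81 without siCENPF library 2, -0.17 without siCENPF library 3 and -0.15 without siNeg library 2. For siFOXM1 those differences of SOX4 were -0.04, -0.20 and 0.11, and for both siRNAs -0.27, -0.26 and -0.24. SOX12 had fold changes of -0.10, 0.19 and 0.05 in the same order, SOX9 of 0.15, 0.16 and 0.20, and SOX13 of 0.19, 0.11 and -0.04.

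**Figure D5:**
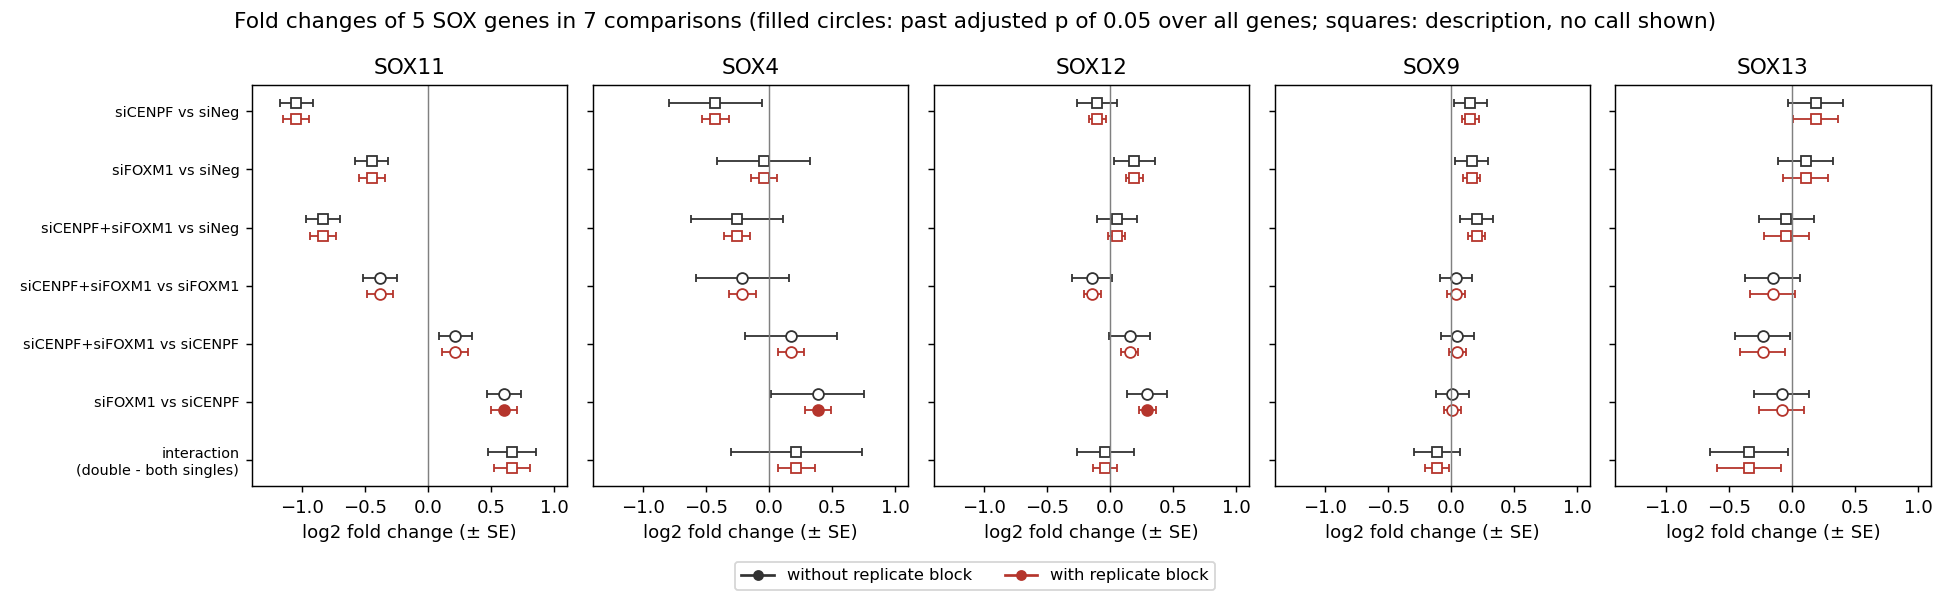
Log2 fold changes with their SE for the 5 SOX genes in 7 comparisons, without (black) and with (red) the replicate number as a block in the limma fit; filled circles have an adjusted p under 0.05 over all genes, and open squares are comparisons that hold the siCENPF and siNeg libraries SOX11 was chosen on, or share siNeg, with no call shown. SOX11, SOX4 and SOX12 are filled in red where siFOXM1 is compared with siCENPF, no circle is filled in black, and the red bars of SOX4 and SOX12 are shorter than the black ones. Comparisons of siFOXM1 and of siCENPF+siFOXM1 with siCENPF also hold the siCENPF libraries SOX11 was noticed in, so its circles there are a description.

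The 2 single knockdowns were compared directly, in 6 libraries that do not include siNeg (the spread is estimated from all 12). SOX11 was higher in siFOXM1 than in siCENPF by 0.60 on the log2 scale (SE 0.133, 95% interval 0.31 to 0.88), with the siFOXM1 libraries above the siCENPF ones in 3 of 3 replicate numbers (0.54, 0.72 and 0.54) and no overlap. The limma adjusted p was 0.0899 without the block and 0.000352 with it. Without a block the difference passed with DESeq2 on recovered reads (0.60, adjusted p = 0.00822) and with limma when siCENPF+siFOXM1 library 2 was left out (0.60, adjusted p = 0.0422). Of 22 alternatives, with and without the block, 4 called SOX11. The limma adjusted p was as high as 0.365 when 1 library was left out, and edgeR without the block did not call it. SOX11 was 1 of the 861 genes (5.8% of those tested) with all siFOXM1 libraries above all siCENPF libraries, and no other member was among the non-overlapping genes, 11.7% in both directions. SOX4 (0.39, limma adjusted p = 0.945 without and 0.023 with the block) and SOX12 (0.30, 0.803 without and 0.00509 with it) differed in the same direction. With the block 3 of 5 members were called higher in siFOXM1, against 3.35% of all genes, and 0 of 5 without it, against 0.128%. Nothing is read from this count, since SOX11 is among the 3 and all of them use the siCENPF libraries it was noticed in. In both directions 7.57% of genes were called with the block and 0.458% without. Leaving out 1 library without the block moved the SOX4 difference to 0.77 (siCENPF library 2), 0.13 (siCENPF library 3) and 0.19 (siFOXM1 library 2). It moved the SOX12 difference to 0.16 (siCENPF library 1) and 0.15 (siFOXM1 library 2). SOX9 differed by 0.01 (95% interval -0.27 to 0.29) and SOX13 by -0.08 (-0.55 to 0.39). These comparisons use the same siCENPF libraries in which SOX11 was noticed. The SOX11 difference and its p-values are therefore not independent of that choice and are given as a description.

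CENPF siRNA was also given on top of FOXM1 siRNA, in 6 libraries that the comparison of siCENPF with siNeg does not hold. SOX11 was lower in siCENPF+siFOXM1 than in siFOXM1 by a log2 difference of -0.39 (SE 0.133, 95% interval -0.67 to -0.10), with 3 of 3 numbers lower (-0.11, -0.74 and -0.30) and no overlap. The limma adjusted p was 0.99998 without the block and 0.156 with it, and the unadjusted p was 0.0122 and 0.000901, so the difference did not pass in either fit. It was -0.25 without siCENPF+siFOXM1 library 2. By the same criterion of no overlap 3.57% of all genes were lower, and SOX11 was the 1 member among them. SOX4 (-0.21), SOX12 (-0.14), SOX13 (-0.15) and SOX9 (0.04) were not called either, in a comparison in which 0.00673% of genes were called without the block and 0.296% with it.

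FOXM1 siRNA on top of CENPF siRNA gave a SOX11 difference of 0.21 (SE 0.133, 95% interval -0.07 to 0.50), with numbers 1 and 3 higher (0.43 and 0.23) and number 2 lower (-0.02). Its limma adjusted p was 0.99995 without the block and 0.413 with it. It was 0.35 without siCENPF+siFOXM1 library 2 and 0.13 without library 3. No member was called or free of overlap (7.43% of genes were), with 0.0808% of genes called without the block and 1.46% with it. SOX4 and SOX12 had differences of 0.17 and 0.15, SOX9 of 0.05 and SOX13 of -0.23. This comparison also holds the siCENPF libraries in which SOX11 was noticed, so its SOX11 values are a description. The 2 groups differed in CENPF too, at 10.8% of its siNeg mean in siCENPF and 15.8% in siCENPF+siFOXM1.

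The interaction term asks whether the joint knockdown departs from the added log2 changes of the single ones. For SOX11 it was 0.66 (SE 0.188, 95% interval 0.26 to 1.07), that is, the level with both siRNAs lay above the level that adding both log2 changes gives. The limma adjusted p was 0.99986 without the block, where 0 of 14857 genes were called, and 0.0191 with it, where 0.841% of genes were called and 0.108% upward. DESeq2 on recovered reads, without a block, gave an adjusted p of 0.375 for SOX11. The term subtracts the siCENPF difference from siNeg for which SOX11 was chosen, so it is not independent of that choice and is given as a description. It also takes the CENPF knockdown as equal in both groups with CENPF siRNA, which it was not. CENPF was at 827 to 1017 normalized counts in siCENPF and 1284 to 1360 in siCENPF+siFOXM1, without overlap. The part of this difference in the SOX11 term was not tested. Limma without the block had 353 genes at an unadjusted p under 0.05, and DESeq2 called 24 genes. SOX4 (0.22), SOX12 (-0.04), SOX9 (-0.11) and SOX13 (-0.34) were not called in either fit.

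RefSeq promoter windows (GRCh38.p14, 250 bases before to 50 after the start site) were at hand for 3 members, SOX4, SOX12 and SOX13. Of these, SOX12 holds a match to the core of the motif that forkhead factors, FOXM1 among them, can bind. The forkhead core TGTTTA was searched on both strands, as were the CHR element TTTGAA and the CCAAT box, and no match of these in SOX12 overlaps it. The core is shown in capitals within 30 bases at chr20:325442-325471 on the plus strand, 98 bases before the RefSeq start site at 325552. The authors' tables start the SOX12 gene earlier, at 325401, so by their annotation these bases lie inside the gene.
SOX12: cgggcacctcggTGTTTAcacggggcggcc

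Of the 35116 promoter windows of this length, 12.3% hold the forkhead core and 15.2% the CHR element, which none of the 3 members has. The CCAAT box is in 34.6% of windows, SOX4 and SOX12 among them. A match is a description of these letters. SOX12, with the core, had a log2 fold change of 0.19 in siFOXM1 against siNeg, and SOX4 and SOX13, without it in the window, had -0.04 and 0.11.

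Genes known as targets of SOX4 or SOX11 in other tissues were looked up as a list that was drawn up with earlier results of these data known. Of 12 such genes 7 were measured, and their median log2 fold change against siNeg was -0.165 in siCENPF, -0.155 in siFOXM1 and -0.175 in siCENPF+siFOXM1, beside medians of -0.000588, -0.000647 and -0.00256 over all genes. None was called without the block. With it 1, 1 and 3 of the 7 were called, all lower, where 1.66%, 4.23% and 3.72% of all genes were called lower. Nothing is read from these medians and counts, because the list and SOX11 were chosen with these comparisons known. The values and p-values of single genes of the list, given next, are a description for the same reason.

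TEAD2, a TEAD transcription factor and a SoxC target in neural and mesenchymal progenitors, had 524, 630.0 and 657 normalized counts for siNeg, 418, 388 and 393 for siCENPF, 514, 549.9 and 555 for siFOXM1, and 366, 468 and 483 for siCENPF+siFOXM1. All siNeg libraries lay above all libraries with CENPF siRNA, as for SOX11, while siFOXM1 and siNeg overlapped. The share of all genes lower than siNeg without overlap was 4.44% in siCENPF and 6.58% in siCENPF+siFOXM1. The log2 fold change of TEAD2 was -0.59 in siCENPF (limma adjusted p = 0.0766 without and 0.000139 with the block) and -0.46 in siCENPF+siFOXM1 (0.189 and 0.00168), and TEAD2 was 0.43 higher in siFOXM1 than in siCENPF (limma adjusted p = 0.00354 with the block).

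MEX3A, an RNA-binding protein gene, had a log2 fold change of -0.61 in siCENPF+siFOXM1 (limma adjusted p = 0.401 without and 0.00541 with the block). SEMA3C, a secreted semaphorin, had -0.19 in siFOXM1 and -0.17 in siCENPF+siFOXM1 (limma adjusted p = 0.0126 and 0.0225 with the block). The remaining measured genes of the list, TUBB3, EZH2, PDGFA and MAP2, were not called in either fit against siNeg, and their log2 fold changes in siCENPF were -0.26, -0.17, 0.19 and 0.11.

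KPNA2, an importin that carries proteins into the nucleus, was the only gene of the other lists called without the block. It fell in siFOXM1 (log2 fold change -0.40, limma adjusted p = 0.0244) and in siCENPF+siFOXM1 (-0.49, limma adjusted p = 0.00866). Its libraries were at 9573 to 9846 normalized counts in siNeg, 7809 to 8843 in siCENPF, 7059 to 7719 in siFOXM1 and 6709 to 7155 in siCENPF+siFOXM1, so siNeg did not overlap with any knockdown group. The share of all genes lower than siNeg without overlap was 4.44% in siCENPF, 6.83% in siFOXM1 and 6.58% in siCENPF+siFOXM1. With the block KPNA2 was also called in siCENPF (-0.21, limma adjusted p = 0.0075). KPNA2 belongs to a list of 11 genes of nuclear import and turnover of SOX proteins, whose medians against siNeg were -0.0638, -0.041 and -0.0512 in siCENPF, siFOXM1 and siCENPF+siFOXM1. With the block KPNA1, another importin, was called in siCENPF (-0.19, limma adjusted p = 0.0482) and in siCENPF+siFOXM1 (-0.23, limma adjusted p = 0.00786), where 4.52% and 7.9% of all genes were called.

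In the list of beta-catenin, TCF/LEF and Wnt feedback genes, with which SOX factors interact, 13 of 20 were measured and none was called without the block. With it 1, 2 and 2 of the 13 were called in siCENPF, siFOXM1 and siCENPF+siFOXM1, where 4.52%, 8.72% and 7.9% of all genes were. DKK1, a secreted Wnt inhibitor, fell in siFOXM1 (-0.38, limma adjusted p = 0.000458) and in siCENPF+siFOXM1 (-0.31, limma adjusted p = 0.00417). TNFRSF19, a receptor of the TNF family, rose in both (0.86 and 0.78, limma adjusted p = 0.0125 and 0.0256), from a low level (0.1568 to 0.3755 FPKM over the 12 libraries). LGR4, an R-spondin receptor, fell in siCENPF (-0.25, limma adjusted p = 0.00304). The log2 difference of DKK1 between siFOXM1 and siCENPF was -0.48 (limma adjusted p = 2.64e-05 with the block), and LGR4 was 0.28 higher in siFOXM1 (limma adjusted p = 0.000923).

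All 16 TGF-beta genes were measured, TGF-beta being an inducer of SOX4, and none was called without the block. With it SMAD3, a signal transducer of the pathway, rose by 0.27 in siFOXM1, TGFB1, a ligand, rose by 0.18 and the receptor TGFBR1 had a change of -0.27 (limma adjusted p = 0.00378, 0.0285 and 0.0266). These are 3 of 16 genes, where 8.72% of all genes were called. Against siNeg 0 of the 16 were called by limma in siCENPF and in siCENPF+siFOXM1, in either fit, where 4.52% and 7.9% of all genes were called with the block. Compared directly, SMAD3 was 0.39 higher in siFOXM1 than in siCENPF and TGFB2, a ligand, differed by -0.28 (limma adjusted p = 9.94e-05 and 0.0222 with the block). Against siCENPF, siCENPF+siFOXM1 had SMAD3 0.31 higher and TGFB2 at -0.30 (limma adjusted p = 0.0049 and 0.0449 with the block), and DKK1 at -0.41 and KPNA2 at -0.29 (limma adjusted p = 0.000727 and 0.000567). KPNA2 differed by -0.20 between siFOXM1 and siCENPF (limma adjusted p = 0.00783 with the block), as did the pigment epithelium marker BEST1 by -0.40 (limma adjusted p = 0.00504).

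Of 15 cartilage genes driven by SOX9 with SOX5 and SOX6, 5 were measured, and WWP2, an E3 ubiquitin ligase gene, was the one called, at 0.31 in siFOXM1 (limma adjusted p = 0.0158 with the block, where 8.72% of all genes were called). Their medians against siNeg were -0.0341, 0.0449 and 0.0528 in siCENPF, siFOXM1 and siCENPF+siFOXM1. Of 10 POU factor genes 3 were measured and none was called in either fit against siNeg.

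Genes whose pattern over the 12 libraries was most like a member were found by Pearson r of log2(normalized count + 1) among 10396 genes with a mean of at least 100 normalized counts, as a description. For SOX11 they were TMX3 (r = 0.93), RNF219-AS1 (0.921), NONO (0.915), FAM217B (0.906) and HDAC4 (0.906). FAM217B had means of 447, 219.5, 331 and 267 normalized counts in siNeg, siCENPF, siFOXM1 and siCENPF+siFOXM1, and HDAC4, a class IIa histone deacetylase, had 243, 147, 204 and 183. The order of the 4 means was that of SOX11 for TMX3, RNF219-AS1, FAM217B and HDAC4, but NONO, a nuclear RNA-binding protein gene, had its lowest mean in siCENPF+siFOXM1 (10101, against 10176 in siCENPF). Since these genes were picked for their likeness to SOX11 in the same libraries, a shared order is no separate result.

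The SOX4 pattern was nearest to those of ARRDC3 (r = 0.957), EIF4A2 (0.949) and SUFU (0.948), and the SOX12 pattern to those of FAM168A (0.958), HDAC6 (0.949) and WDTC1 (0.948). For SOX9 the nearest were IDS (0.91), FHL3 (0.903) and DNER (0.897), and for SOX13, the member with the fewest reads, COG8 (0.853), PISD (0.821) and STK11IP (0.816). All points share the same 12 libraries, and the libraries of 1 replicate number share deviations.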

How the data were processed

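RNA-seq libraries of polyadenylated RNA from hTERT-RPE1 cells, 4 siRNA groups of 3, were analysed from processed tables. Per the submitters' processing notes, bcl2fastq, Trimmomatic, TopHat, edgeR and the hg38 genome were used, versions unstated. Normalized counts of 14862 genes are the values used most here: the authors deposited them as a count-like signal, by a normalization that the sources at hand do not state. The authors also deposited FPKM for 60279 genes. Per the file headers, the deposited edgeR tables give each gene a p-value, a likelihood ratio as a score, a log2 fold change and the CPM of every library compared. The deposited CPM are whole multiples of 1 read: 100% of values gave whole reads within 0.01, which gave library totals of 13671250 to 35411230 reads. The count of reads behind a member, 56 to 2521 per library and fewest for SOX13, limits the precision. Reads are not the only limit: without the block the SE against siNeg was 0.368 for SOX4 and 0.219 for SOX13.

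From these files, limma 3.58.1 (R 4.3.3; trend and robust moderation) was fitted to log2(normalized count + 1) in 12 libraries with 4 group means, for the 14857 genes that reached 10 normalized counts in 3 or more libraries. Tests were two-sided, with Benjamini-Hochberg adjustment over all genes and a threshold of 0.05, in 7 comparisons. Fold changes on this scale understate changes of low genes. Alternatives were the replicate number as a block, the FPKM table with a pseudocount of 0.5, edgeR 4.0.16 and DESeq2 1.42.0 on 14150 genes with recovered reads, pseudocounts of 0.5 and 5, no filter, a mean of at least 100, only the groups compared, and leaving out each library. The limma, edgeR and DESeq2 fits without the block were tested on simulated data, in which libraries of the same number shared no deviation. The fits with the block were not tested in this way.

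Replicate numbers, which come from the labels, were checked for pairing: deviations from group means correlated at 0.272 to 0.639 in the 18 pairs of libraries with the same number and at -0.51 to 0.0248 in the 36 pairs with different numbers, so the numbers were taken to pair the libraries. Replicates of a group differed by more than sampling noise. No column of per-sample values was left unused.

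The members, gene lists and marker lists were chosen with earlier results of these data known. All 5 members were named in every comparison. From each list the genes past the threshold were named, up to 4 per list and comparison, and genes of like pattern were the 5 nearest to SOX11 and the 3 nearest to each other member. Some list results are not reported here. SOX15 and the uncalled list genes given with values were named after their values were seen. Sequences came from GENCODE v29 transcripts and RefSeq promoters.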

Additional observations from a re-analysis of the deposited data

Results flagged for a closer look

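The interaction term of SOX11 passed the threshold only in the fits with the replicate number as a block. On the log2 scale it was 0.6632 (SE 0.145, limma adjusted p = 0.0191), and edgeR with the block on recovered reads gave 0.67 (adjusted p = 0.0166). Without the block the limma term had an SE of 0.188 and an adjusted p of 0.99986, and DESeq2 on recovered reads gave an adjusted p of 0.375. The log2 difference of SOX11 with CENPF siRNA was -1.05 without FOXM1 siRNA and -0.39 with it. The first of these is the difference for which SOX11 was chosen, and a gene chosen for a low value there starts with a higher term, so these p-values are not independent of the choice and the term is a description. CENPF was also knocked down less with both siRNAs (15.8% of its siNeg mean) than in siCENPF (10.8%), and the part of this in the term was not tested.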

How the results depend on the processing

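Against siNeg, where SOX11 was chosen and its values are a description, the log2 fold change in siCENPF was -1.12 to -0.89 over the alternatives. In siCENPF+siFOXM1 it missed the threshold with only the groups compared (-0.84) and without siNeg library 2 or 3. Leaving out 1 library at a time gave -1.12 to -0.98 for siCENPF, -0.50 to -0.37 for siFOXM1 and -0.92 to -0.70 for siCENPF+siFOXM1. With the replicate block SOX11 also passed the threshold in siFOXM1 against siNeg (-0.4502; with edgeR on recovered reads, -0.4473), in siFOXM1 against siCENPF (0.5984; edgeR 0.6056) and in the interaction (0.6632; edgeR 0.6689). DESeq2 also called siFOXM1 against siCENPF (0.5989), as did limma without siCENPF+siFOXM1 library 2 (0.60; range over single libraries left out 0.55 to 0.67). No other fit without the block called SOX11 there. That comparison holds the siCENPF libraries in which SOX11 was noticed, so these calls are a description. The edgeR fit with the block was added after the data were seen. With the block SOX4 passed in siCENPF against siNeg, also a description, and in siFOXM1 against siCENPF, SOX12 in the latter, and no other call of a member changed.

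Signs of uncalled changes turned in several fits. SOX13 in siCENPF+siFOXM1 against siNeg, -0.04 in limma, was 0.0005 with edgeR, 0.0036 with DESeq2 and 0.0110 with edgeR and the block. Leaving out 1 library gave, for SOX4, -0.24 to 0.23 in siFOXM1 and -0.53 to 0.0204 in siCENPF+siFOXM1 against siNeg, -0.10 to 0.56 in siCENPF+siFOXM1 against siCENPF and -0.0612 to 0.60 in the interaction. For SOX9 it gave -0.046 to 0.13 in siCENPF+siFOXM1 against siFOXM1, -0.0608 to 0.14 against siCENPF, -0.10 to 0.10 in siFOXM1 against siCENPF and -0.23 to 0.0132 in the interaction. For SOX12 it gave -0.23 to 0.0368 in siCENPF and -0.0505 to 0.16 in siCENPF+siFOXM1 against siNeg, -0.24 to 0.0027 in siCENPF+siFOXM1 against siFOXM1 and -0.18 to 0.10 in the interaction. For SOX13 it gave -0.0013 to 0.21 in siFOXM1 and -0.23 to 0.22 in siCENPF+siFOXM1 against siNeg, -0.34 to 0.11 and -0.42 to 0.0323 in siCENPF+siFOXM1 against siFOXM1 and siCENPF, and -0.19 to 0.0224 in siFOXM1 against siCENPF.

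Counts of genes called depended most on the block. In the order siCENPF, siFOXM1 and siCENPF+siFOXM1 against siNeg, siCENPF+siFOXM1 against siFOXM1 and against siCENPF, siFOXM1 against siCENPF, and interaction, limma called 50, 98, 68, 1, 12, 68 and 0 genes. With the replicate block it called 671, 1295, 1174, 44, 217, 1125 and 125, and edgeR with the block 711, 1324, 1250, 42, 229, 1134 and 117. DESeq2 called 136, 254, 169, 4, 33, 158 and 24. With only the groups compared limma called 6, 41, 35, 1, 3 and 12, and on FPKM it called 33 in siFOXM1 against siCENPF. Leaving out 1 library gave 21 to 48, 34 to 112, 30 to 80, 1 to 1, 2 to 12, 18 to 59 and 0 to 0. With 3 libraries per group and 56 to 199 reads of SOX13, small changes of that gene could not be seen at this depth. The cause of these shifts was not tested.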
